A study of Mus musculus with 8 samples.

Results

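The Reg lectins and secreted epithelial antimicrobials are genes whose products leave the gut epithelium, or sit on its surface, and keep bacteria away from it. The set was given by name and holds 9 genes: Reg1, Reg3a, Reg3b, Reg3g, Reg4, Lypd8, Pla2g2a, Lyz1 and Slpi. All 9 were found by Ensembl ID among the 53465 genes of the deposited table, and all 9 reached the mean of 3 that was asked of a gene to enter the test, as did 16380 genes in all. RNA came from the colon of mice on the B6 background and made 8 samples, 4 labelled Arg1 wt (wild type) and 4 labelled Arg1 ko, which carry a conditional, cell-specific deletion of Arg1, the gene of the arginine-splitting enzyme arginase 1. Both groups drank 2.5% dextran sulfate sodium (DSS), which injures the colon epithelium, for 1 week and then plain water until day 10. The mice were littermates of 7 to 12 weeks, with age and sex matched. Which cells lost Arg1, and what drives the deletion, is not said, nor whether a sample is 1 mouse or a pool. Colon is the labelled tissue, but the protocol purifies clumps of epithelium freed with 30 mM EDTA from intestinal pieces. An undamaged control without DSS is not analysed here, so the values below compare genotypes within colitis only.

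Values are regularised log2 values (rlog): read counts scaled for library size, on a log2 scale, and drawn toward the mean of the gene, more so where reads are few. A difference is Arg1 ko minus wild type on that scale, so that -1 stands for 0.5 times the level. Depth per library is unknown, since rlog keeps no counts, and the shrinkage makes differences of the weakly expressed members too small. In RNA pooled from many cells, fewer cells of a type and less RNA per cell cannot be told apart. Epithelial RNA was abundant in both groups (Epcam 15.45 ± 0.26 in wild type and 15.25 ± 0.10 in Arg1 ko, SD, n = 4 each). Of 12 epithelial markers 8 were lower and 4 higher in Arg1 ko. Krt18 (-0.35) had an unadjusted limma p under 0.05, and Vil1 (0.19) lay wholly higher in Arg1 ko. None of the 12 passed the test, but neither did any other gene, so this does not show equal epithelial content. Of 15 Paneth cell markers found, 9 were listed at 0 in all 8 libraries, 7 of them alpha-defensins. Arg1 itself was weakly expressed and differed by -0.37 between the genotypes (group means 5.44 for wild type, 5.07 for Arg1 ko, limma adjusted p = 0.522). The library labelled wild type 3 had 5.02, inside the Arg1 ko range of 4.87 to 5.19, so that its Arg1 level does not bear out its label. The other wild-type libraries had 5.57 to 5.59. With so small a difference and a cell-specific deletion, Arg1 RNA alone cannot settle the genotype of a library. Sample numbers run separately in each genotype, so a batch, if they mark one, and the genotype cannot be told apart.

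Reg proteins are small secreted C-type lectins. In the intestine Reg3b and Reg3g are made by enterocytes and Paneth cells in response to bacteria and to injury, largely through interleukin 22 and Stat3, and their products bind bacterial surfaces and hold bacteria off the epithelium. Lypd8 is a heavily glycosylated protein of the colonic surface that binds flagella, Lyz1 and Pla2g2a encode enzymes that attack bacterial cell walls and membranes, and Slpi inhibits the proteases that neutrophils release.

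No gene of the 16380 passed the test between Arg1 ko and wild type (limma, Benjamini-Hochberg adjusted p under 0.05; 0% of the tested genes; smallest adjusted p 0.522), and so none of the 9 members did. Of the 9, 7 had a lower mean in Arg1 ko and 2, Reg4 and Pla2g2a, a higher one, where 48.8% of all tested genes were lower. Reg3b, Reg3g, Reg3a and Slpi were below an unadjusted p of 0.05, all lower in Arg1 ko, and 4.37% of all tested genes met that condition. At that unadjusted threshold 1490 genes (9.1%) were found in either direction. The same 4 members were lower by at least 0.4, as were 2.98% of the tested genes. The median difference over the 9 members was -0.18, against 0.01 over all tested genes. Only in Reg3b did the groups not overlap, with every Arg1 ko value below every wild-type value, as in 1.67% of the tested genes. No member lay wholly higher in Arg1 ko, as 2.36% of the tested genes did. The members were chosen with earlier results of these data known, so these counts describe them and carry no test of the set.

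**Figure D1:**
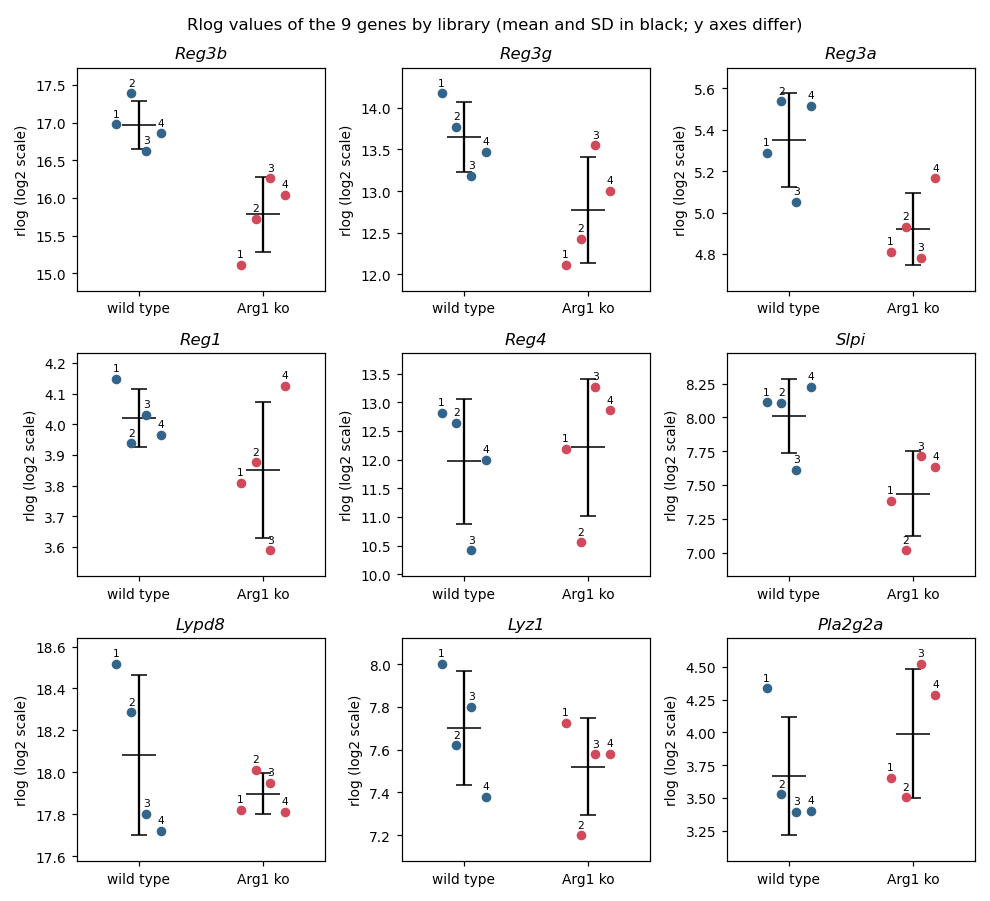
Rlog value (log2 scale) of each of the 9 genes in the 4 wild-type and 4 Arg1 ko libraries, with the replicate number beside each point, the group mean as a horizontal bar and the SD as whiskers; y axes differ between panels. Reg3b is the only panel without overlap, with Arg1 ko at 15.11 to 16.26 and wild type at 16.63 to 17.39, while Reg4 spreads over 2.85 and Pla2g2a over 1.13 within the 8 libraries.

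The antibacterial lectins Reg3b and Reg3g were the most abundant Reg genes. Reg3b (ENSMUSG00000071356, chromosome 6, 78370657 to 78373466, plus strand, GRCm38) had 16.98, 17.39, 16.63 and 16.86 in wild type 1 to 4 and 15.11, 15.72, 16.26 and 16.04 in Arg1 ko 1 to 4. The groups were separated by 0.37 between the lowest wild-type library, labelled wild type 3, and the highest Arg1 ko library, Arg1 ko 3. Group means were 16.96 ± 0.32 and 15.78 ± 0.50 (SD, n = 4 each), so that Arg1 ko minus wild type came to -1.18 (standard error 0.26, 95% interval -1.76 to -0.60), or 2.26-fold lower. Its unadjusted p of 0.00103 was the ninth smallest of all tested genes (rank 9), but its limma adjusted p was 0.522. Permuting the genotypes over all 70 assignments gave an exact two-sided p of 0.0286, the smallest value that this design allows. Every gene whose groups do not overlap reaches that value, as 4.03% of the tested genes did in either direction, so it adds nothing to the separation. Within the libraries, Reg3b ranked 4 to 9 among all genes by rlog in wild type and 14 to 36 in Arg1 ko, so it remained among the most abundant RNAs of the tissue in each of the 8 libraries.

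Reg3g (ENSMUSG00000030017, chromosome 6, 78466269 to 78468872, minus strand), whose product kills Gram-positive bacteria, had 14.17, 13.77, 13.18 and 13.47 in wild type and 12.11, 12.43, 13.55 and 13.00 in Arg1 ko. The groups overlapped, because Arg1 ko 3 lay above wild type 4 and above the library labelled wild type 3. Group means were 13.65 ± 0.43 and 12.77 ± 0.63 (SD, n = 4 each), and the interval of the difference, -0.88, ran from -1.56 to -0.19 (limma adjusted p = 0.522). Without Arg1 ko 3 the difference was -1.13 and without wild type 1 and 2 it was -0.55, with an adjusted p above 0.05 in either case. Arg1 ko 1 and Arg1 ko 2 had the lowest values of both lectins.

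Reg3b was above Reg3g in every library, by an amount that varied within each genotype. The gap between them within a library was 2.80, 3.61, 3.45 and 3.39 in wild type and 3.00, 3.29, 2.71 and 3.04 in Arg1 ko. In wild type the gap varied about as much as Reg3b itself, whose highest library was wild type 2 while that of Reg3g was wild type 1. The mean gap was 3.31 ± 0.35 (SD, n = 4) and 3.01 ± 0.24 (SD, n = 4), and the difference of -0.30 did not pass an exact two-sided permutation test (p = 0.229). These data therefore do not separate the sizes of the change in Reg3b and Reg3g. After each gene was centred on its mean over the 8 libraries, Reg3g was the nearest of all other tested genes to Reg3b, with a root mean square difference of 0.30, where a flat profile would be 0.69 away, a distance that includes the genotype difference they share. From Reg3g, Reg3b was second, after a ribosomal protein pseudogene, Rps26-ps1, which was named after its value was seen.

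Both genes lie in a cluster of 6 Reg genes that spans 98.2 kb of chromosome 6, with Reg3b at one end and Reg3g at the other. Between them lie Reg3d, Reg3a, Reg2 and Reg1, in that order. Levels within the cluster were far from even. Corrected for transcript length (rlog minus log2 of the length in kb), the means over 8 libraries were 16.73 for Reg3b and 13.59 for Reg3g, but 5.41 for Reg3a, 4.08 for Reg1, 3.12 for Reg2 and -1.38 for Reg3d. The abundant genes were thus the outer members, and the 4 genes between them were low in every library. No stretch of 50 bases of the Reg3b, Reg3g, Reg3a, Reg2 or Reg3d transcript occurs in a transcript of another gene, while 3.74% of the stretches of Reg1 do. Reads of the abundant lectins that match exactly over such a length are therefore not shared with their low neighbours, though Reg3b and Reg3a transcripts are 69.0% identical and Reg3b and Reg3g 68.6%.

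The sequences before the start sites are shown for Reg3b, Reg3g and Reg3a, the lectins of the cluster with an unadjusted p under 0.05, to set the abundant genes beside the weak one. They are the 150 bases before the RefSeq start (GRCm38.p6), written 5′ to 3′ on the strand of the gene, at chr6:78370735-78370884 (plus strand), chr6:78468875-78469024 (minus strand) and chr6:78380559-78380708 (plus strand). Capitals mark matches on either strand to the STAT motif TTCNNNGAA and to the TATA box TATAAA.
Reg3b: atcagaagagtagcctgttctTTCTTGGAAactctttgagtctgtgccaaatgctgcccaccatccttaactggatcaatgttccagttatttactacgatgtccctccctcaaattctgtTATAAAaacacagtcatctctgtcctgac
Reg3g: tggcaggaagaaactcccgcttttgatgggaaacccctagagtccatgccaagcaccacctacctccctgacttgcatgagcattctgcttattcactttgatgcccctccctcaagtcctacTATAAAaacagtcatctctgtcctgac
Reg3a: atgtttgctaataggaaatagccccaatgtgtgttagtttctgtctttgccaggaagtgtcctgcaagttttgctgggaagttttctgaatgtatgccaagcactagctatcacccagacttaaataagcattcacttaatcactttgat
Reg3b held 1 STAT match, TTCTTGGAA, whose first base lies 129 bases before the start. Among 32851 RefSeq promoters, 7.02% hold a match to that motif in the 250 bases before the start, and the Reg3g and Reg3a windows of the same length hold none. A TATA box stood 29 bases before the start of Reg3b and 27 before that of Reg3g, and 12.4% of all promoters hold those letters in such a window. The printed stretch of Reg3a has none. These letters did not sort the cluster by level: the weakly expressed Reg1 and Reg2 each held a TATA box 30 bases before the start, and Reg3d, at the floor in every library, held a STAT match, TTCCCAGAA, whose first base lies 238 bases before its start. The 250 bases before Reg3b and Reg3g were 68.9% identical in a global alignment, and those before Reg3b and Reg3a 47.9%. For a C/EBP motif, TTNNGNAA on either strand, the 250 bases held 2 matches in Reg3a, 3 in Slpi, 1 in Lyz1 and none in Reg3b or Reg3g, against 36.8% of all promoters with at least 1. The STAT and C/EBP motifs can overlap each other in sequence, and a match is a description of letters only. Of the 9 members 8 had a promoter in the RefSeq table, all but Pla2g2a. The RefSeq starts of Reg3b (78370885), Reg1 (78425983) and Reg2 (78405155) lie inside the annotated genes, which begin at 78370657, 78422711 and 78395623. The printed stretch of Reg3b therefore lies within its gene coordinates. The RefSeq start of Slpi (164356507) also lies inside its gene, 164354070 to 164389095 on the minus strand, and so do its C/EBP matches. Lypd8 has a start inside its gene (58380646) and another just before it (58379032).

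Reg3a and Reg1 are the weakly expressed Reg genes of the set, both also known from the exocrine pancreas. Reg3a (ENSMUSG00000079516, chromosome 6, 78380709 to 78383827) had 5.29, 5.54, 5.05 and 5.52 in wild type and 4.81, 4.93, 4.78 and 5.17 in Arg1 ko. Only Arg1 ko 4 reached into the wild-type range, which it did by lying above the library labelled wild type 3. Between the genotypes Reg3a differed by -0.43, with an interval of -0.75 to -0.10 (limma adjusted p = 0.522). Reg1 (ENSMUSG00000059654, chromosome 6, 78422711 to 78428667), a lectin tied to epithelial growth and regeneration, had 4.15, 3.94, 4.03 and 3.97 in wild type and 3.81, 3.88, 3.59 and 4.13 in Arg1 ko. Again 3 of the 4 Arg1 ko libraries were below all wild-type values and Arg1 ko 4 was not. The difference of -0.17 has an interval of -0.45 to 0.11. Reg2 stayed under the filter, at 2.34 to 2.91, and Reg3d was at -1.75 to -1.71 in every library.

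Arg1 ko 4 also stood apart in genes of pancreatic acinar cells, which make digestive enzymes. Cpa1, a carboxypeptidase, was 4.45 there and 2.31 to 2.78 in the other 7 libraries, and the lipase Pnlip was 4.78 against 2.40 to 2.92. The elastase Cela2a was 3.80 against 2.05 to 2.40 and the trypsin Prss2 3.80 against 2.08 to 2.73. Of the 16 acinar genes listed 2 were at 0 in all libraries, 9 were under the filter and 5 were tested. Of those 5, Arg1 ko was the higher group in 2 and the lower in 3, and none passed. The summed level of the list, log2 of the sum of the unlogged values, was 9.82 to 10.75 in wild type and 10.02 to 10.24 in Arg1 ko, most of it from Cela1 and Clps, which did not share the peak in Arg1 ko 4. Reg1, Reg2 and Reg3a had their highest Arg1 ko value in that library, at 4.13, 2.91 and 5.17. Without it the difference of Reg1 was -0.26 and that of Reg3a -0.51, neither past the test. What part the acinar genes have in these values was not tested.

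**Figure D2:**
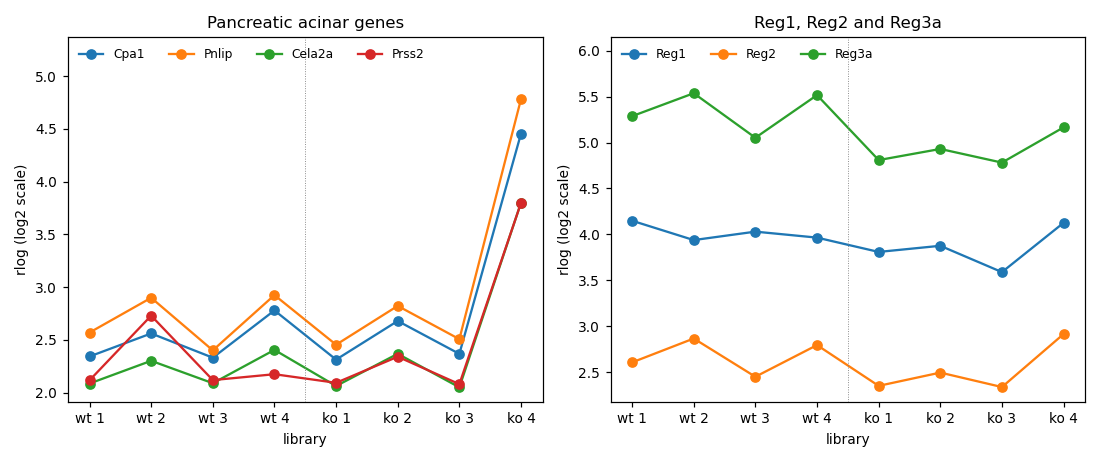
Rlog value (log2 scale) by library of 4 pancreatic acinar genes (left) and of Reg1, Reg2 and Reg3a (right); lines join the values of a gene and carry no order of libraries, and a dotted line parts wild type from Arg1 ko. Arg1 ko 4 is the highest library in each of the 4 acinar genes (Cpa1 4.45, Pnlip 4.78) and the highest Arg1 ko library in the 3 Reg genes.

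Slpi (ENSMUSG00000017002, chromosome 2, 164354070 to 164389095, minus strand) had 8.11, 8.11, 7.61 and 8.22 in wild type and 7.38, 7.02, 7.71 and 7.64 in Arg1 ko. The library labelled wild type 3 lay below Arg1 ko 3 and 4, and the other wild-type values lay above all Arg1 ko values. Group means were 8.01 ± 0.27 and 7.44 ± 0.31 (SD, n = 4 each), and Slpi was lower by a log2 difference of -0.58 (interval -0.99 to -0.16), or 1.49-fold (limma adjusted p = 0.522). In centred profiles Slpi was the 23rd nearest gene to Reg3b (rank 23) and the 22nd nearest to Reg3g (rank 22), closer than any other member of the set but those lectins themselves.

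Slpi is made by epithelium and by neutrophils, and most of the tested neutrophil markers were lower in Arg1 ko as well. Of 12 tested neutrophil markers 10 were lower, 5 of them with an unadjusted p under 0.05 and none past the test. Of all tested genes 48.8% were lower, and 4.37% were lower at that threshold. Mmp9 (0.19) and Csf3r (0.28) were higher in Arg1 ko. The median difference of the 12 markers was -0.44. Their summed level was 9.59 to 11.04 in wild type and 9.57 to 9.88 in Arg1 ko, with the library labelled wild type 3 at 9.59. None of the 16 listed was at 0 in all libraries, and Cxcr2, Elane, Camp and Mpo were under the filter. Ly6g, a surface marker of mouse neutrophils, had the highest mean of the tested markers. It was 9.18, 9.93, 7.21 and 9.32 in wild type and 6.94, 7.55, 8.25 and 7.50 in Arg1 ko. The part of neutrophil RNA in the Slpi values was not tested.

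The library labelled wild type 3 had the lowest wild-type value of Reg3b, Reg3g, Reg3a, Slpi and Reg4. It was also the lowest for Pla2g2a, though barely (3.396 against 3.401 in wild type 4). Without it limma called 1005 genes, and 2 members passed: Reg3b with a difference of -1.29 (adjusted p = 0.0368; range over all alternatives 0.0368 to 0.819) and Slpi with -0.71 (adjusted p = 0.0479; range 0.0479 to 0.819). Reg3a, at -0.53, and Reg3g, at -1.03, did not pass (adjusted p = 0.0533 and 0.0878). Lower calls without that library made up 3.28% of the tested genes, and calls in either direction 6.14%. For Reg3b, Reg3g, Reg3a and Slpi that library held the wild-type value nearest to the Arg1 ko values, so leaving it out enlarges their differences by construction. Lypd8 also grew, to -0.28. The differences of Reg1 (-0.17), Lyz1 (-0.15) and Pla2g2a (0.24) did not grow, and that of Reg4 turned to -0.27. Without wild type 1 and 2 together, 6 of 9 members were lower and Reg3b alone (-0.96) kept an unadjusted p under 0.05.

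**Figure D3:**
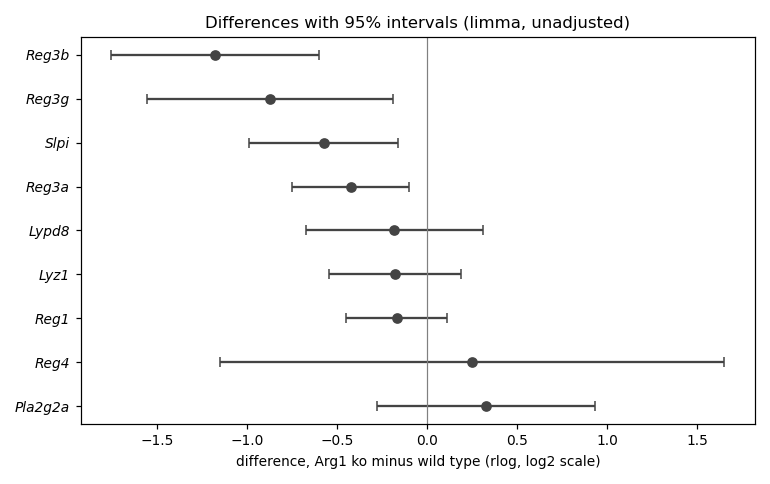
Difference of the mean rlog value, Arg1 ko minus wild type (log2 scale), for each of the 9 genes, with the unadjusted 95% interval of the limma fit on 4 against 4 libraries. The intervals of Reg3b, Reg3g, Slpi and Reg3a lie below 0, those of the other 5 genes include it, and none of the 9 differences passed after adjustment over all 16380 genes.

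Lypd8 (ENSMUSG00000013643, chromosome 11, 58379043 to 58390728, plus strand) was the most abundant member and ranked 1 to 4 among all genes in each of the 8 libraries by rlog. Its values were 18.52, 18.29, 17.80 and 17.72 in wild type and 17.82, 18.01, 17.95 and 17.81 in Arg1 ko. Wild type 1 and 2 were above all Arg1 ko libraries, and the other wild-type libraries were below all of them. Group means were 18.08 ± 0.38 and 17.90 ± 0.10 (SD, n = 4 each), which leaves -0.18 between the genotypes with an interval of -0.67 to 0.31 (limma adjusted p = 0.724). Without wild type 1 and 2 the difference was 0.14. Lypd8, on the surface of mature colonocytes, thus varied over 0.80 in the 8 libraries where Reg3b varied over 2.27.

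Lyz1 (ENSMUSG00000069515, chromosome 10, 117287797 to 117292868, minus strand), the Paneth cell lysozyme, had 8.00, 7.62, 7.80 and 7.38 in wild type and 7.72, 7.20, 7.58 and 7.58 in Arg1 ko. The groups overlapped, and the difference of -0.18 has an interval of -0.55 to 0.19 (limma adjusted p = 0.645). Lyz2, the lysozyme of macrophages and neutrophils, is its neighbour, and their transcripts are 92.0% identical. Lyz2 was higher by 5.10 to 5.56 in every library, and 16.1% of the 50-base stretches of Lyz1 also occur in Lyz2. The sources used here do not say how such reads were counted, so the Lyz1 values are uncertain and may hold reads of Lyz2. Of the other Paneth markers 5 were tested, of which 4 were lower and 1, Ang4, higher in Arg1 ko. Their median difference was -0.26, and none passed. Defensins Defa17, Defa20, Defa21, Defa22, Defa23, Defa26 and Defa30 were at 0, Ang4, an antimicrobial ribonuclease also made in the colon, was 10.01 ± 0.64 and 10.51 ± 0.58 (SD, n = 4 each), and Mmp7, the protease that activates defensins, was 8.42 ± 0.19 and 7.84 ± 0.24 (SD, n = 4 each). The groups of Mmp7 did not overlap, as in 1.67% of all tested genes that lay wholly lower in Arg1 ko. The summed level of the list, most of it from Ang4, was 10.34 to 11.34 in wild type and 10.34 to 11.34 in Arg1 ko.

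Reg4 (ENSMUSG00000027876, chromosome 3, 98222156 to 98236748, plus strand), a marker of the deep crypt secretory cells that support colonic stem cells, was the most variable member. It had 12.81, 12.64, 10.42 and 12.00 in wild type and 12.19, 10.56, 13.27 and 12.86 in Arg1 ko. The library labelled wild type 3 and Arg1 ko 2 were low, and the other 6 libraries lay between 12.00 and 13.27. The difference of 0.25 has an interval of -1.15 to 1.65 (limma adjusted p = 0.872), which allows a change of more than 1 in either direction. The SD of Reg4 over the 8 libraries, 1.07, was larger than that of 99.9% of the tested genes. The sign of the difference depended on single libraries: it was -0.27 when the library labelled wild type 3 was left out, -0.10 without Arg1 ko 3 and 0.80 without Arg1 ko 2.

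Genes with a profile near that of Reg4 had the same low libraries. Aqp8, a water channel of colonocytes, was at 8.13 for the library labelled wild type 3, 8.46 for Arg1 ko 2 and 9.60 to 11.59 in the others. Its root mean square difference from Reg4 after centring was 0.40, against 1.00 for a flat profile. For St3gal5, which makes the ganglioside GM3, it was 0.46. Goblet and deep crypt secretory cell markers went both ways, with a mean centred level of -0.08 for the library labelled wild type 3 and 0.01 for Arg1 ko 2. Spink4, a secreted product of goblet and deep crypt secretory cells, had its lowest value of each group there, at 12.37 and 12.87, and so did the goblet cell antimicrobial Retnlb, at 10.74 and 10.62. Kit, of the same marker list as Spink4, instead had its highest value of each group there, at 11.34 and 11.36. Posterior gut Hox genes were at -0.01 and 0.04 there, and mature colonocyte markers, among them Aqp8, at -0.28 and -0.16, the lowest of each group.

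Pla2g2a (ENSMUSG00000058908, chromosome 4, 138831857 to 138835186, plus strand) encodes a secreted phospholipase that breaks bacterial membranes. It is disrupted by a frameshift in C57BL/6 mice, and the annotation lists it as a polymorphic pseudogene. It had 4.33, 3.53, 3.40 and 3.40 in wild type and 3.65, 3.50, 4.52 and 4.28 in Arg1 ko, so that wild type 1 and Arg1 ko 3 and 4 were high and the other 5 libraries lay between 3.40 and 3.65. The difference of 0.33 has an interval of -0.28 to 0.93 (limma adjusted p = 0.618). The gene Pla2g5, at 7.25 ± 0.45 and 7.25 ± 0.35 (SD, n = 4 each), overlaps it on the other strand, and the sources used here give no strand setting for the counting, so reads of Pla2g5 could be among its low values. In centred profiles it was the 27th nearest gene to Reg4 (rank 27). Its 3 high libraries were also the 3 highest of Reg4.

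**Figure D4:**
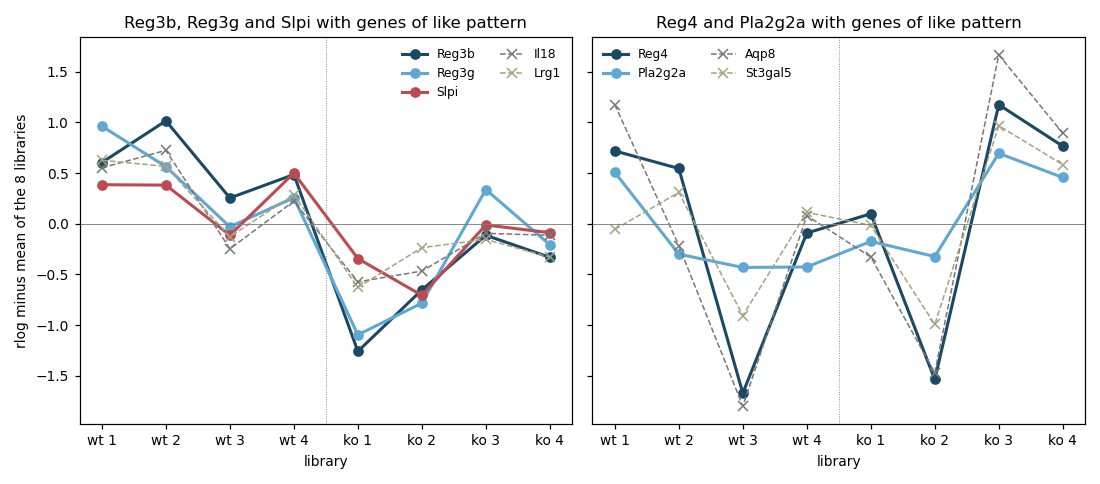
Rlog value minus the mean of the 8 libraries for Reg3b, Reg3g and Slpi with Il18 and Lrg1 (left), and for Reg4 and Pla2g2a with Aqp8 and St3gal5 (right); solid lines are members, dashed lines are genes of like pattern, and lines carry no order of libraries. On the left the wild-type libraries are mostly above and the Arg1 ko libraries mostly below their mean, and on the right the library labelled wild type 3 and Arg1 ko 2 are low in each gene shown.

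The order of the length-corrected levels held within libraries for most neighbours. From the top it ran Lypd8 (17.70), Reg3b (16.73), Reg3g (13.59), Reg4 (12.06), Slpi (7.92), Lyz1 (7.27), Reg3a (5.41), Pla2g2a (4.18) and Reg1 (4.08), each as rlog minus log2 of the transcript length in kb. In all 8 libraries each gene down to Reg3a was above the next in that order. Pla2g2a was above Reg1 in only 4 of 8, so those neighbours do not differ beyond their spread. The ranges over the 8 libraries overlapped for Lypd8 and Reg3b, for Reg3g and Reg4, and for Slpi and Lyz1. Lypd8 exceeded Reg3b by 0.86 to 1.54 in wild type and by 1.69 to 2.71 in Arg1 ko before correction for length.

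**Figure D5:**
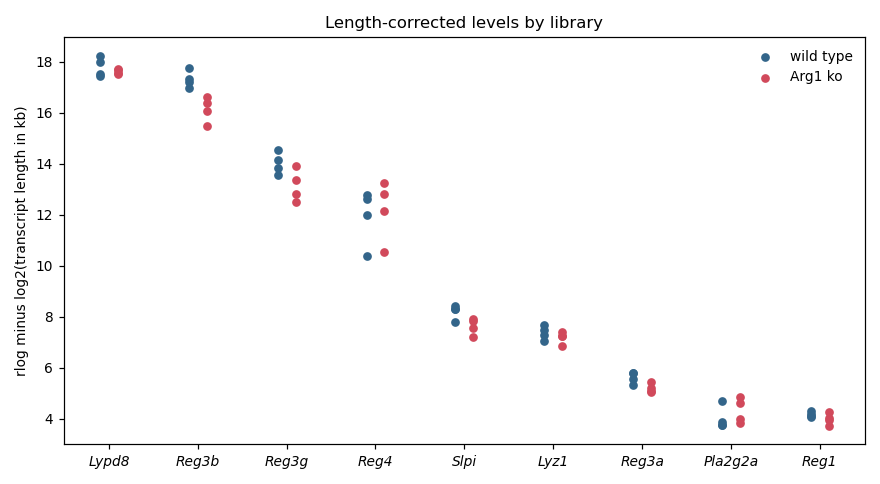
Length-corrected level (rlog minus log2 of the transcript length in kb) of each of the 9 genes, 1 point per library, in order of the mean over the 8 libraries. Lypd8 and Reg3b are at the top with means of 17.70 and 16.73, and Pla2g2a and Reg1 at the foot with 4.18 and 4.08.

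Among the cytokines, receptors and factors known to induce Reg3 genes, some cytokines were barely detected. Il22, the main inducer of Reg3b and Reg3g, was at 0.18 to 0.51 in the 8 libraries, Il17a at -2.10 to -2.08, Il23a at 0.77 to 0.99 and Il6 at 2.01 to 2.76, all under the filter. Other cytokines of the list entered the test, among them Il18 and Osm, with means of 9.44 and 3.96 over the 8 libraries. The list has 32 tested genes, of which 12 were higher and 20 lower in Arg1 ko, where 48.8% of all tested genes were lower. None passed, and the median difference was -0.04 against 0.01 over all genes. The unadjusted p was under 0.05 in 5 lower genes and in 1 higher gene, Tyk2 (0.30), a kinase of cytokine receptors. The lowest p belonged to Cebpd, a factor of the acute phase, at 10.26, 10.59, 10.16 and 10.60 in wild type and 9.80, 9.89, 9.92 and 9.88 in Arg1 ko, groups that did not overlap. Osm, a cytokine of the interleukin 6 family, differed by -0.45, and Il18, a cytokine stored in epithelial cells, by -0.62. Stat3 itself was 12.00 ± 0.24 and 11.90 ± 0.03 (SD, n = 4 each), and the interleukin 22 receptor chain Il22ra1 was 8.91 ± 0.73 and 9.34 ± 0.12 (SD, n = 4 each). The mean of Il22ra1 was thus higher and that of Stat3 lower in Arg1 ko, neither past the test. Socs3, another of the 5 lower genes, was 9.02 ± 0.16 and 8.72 ± 0.12 (SD, n = 4 each), groups that did not overlap (limma adjusted p = 0.522). Of all tested genes 1.67% lay wholly lower in Arg1 ko, as Cebpd and Socs3 did. With pseudogenes and predicted genes left out, Il18 was also the nearest gene outside the set to both Reg3b (0.35) and Reg3g (0.32), followed for Reg3b by Lrg1 (0.35), a secreted acute phase glycoprotein that differed by -0.67. The annotated microRNA locus Mir6236 came next for Reg3b (0.39) and stood between Il18 and Lrg1 for Reg3g (0.33). These distances include the difference between the genotypes, so genes that differ in the same direction are near by construction.

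Other secreted and epithelial defence genes went both ways. Arg1 ko was the lower group in 20 of the 30 tested and the higher in 10, where 48.8% of all tested genes were lower. The median difference was -0.10 against 0.01 over all tested genes, and none passed. Whether the list as a whole shares the pattern of Reg3b was not tested. At an unadjusted p under 0.05 were Lcn2 (-0.85), which withholds iron from bacteria, Ltf (-0.35), encoding lactoferrin, and on the higher side Nox1 (1.06), an epithelial producer of superoxide. S100a9, a subunit of calprotectin, differed by -0.69. The most abundant of them differed by 0.08 (Muc2), -0.005 (Dmbt1), -0.31 (Zg16, interval -0.87 to 0.24) and 0.001 (Pigr). The mucin Muc2 was 17.11 ± 0.47 and 17.18 ± 0.08, the scavenger receptor Dmbt1 17.27 ± 0.44 and 17.26 ± 0.10, the mucus lectin Zg16 16.66 ± 0.55 and 16.35 ± 0.11, and the antibody transporter Pigr 16.00 ± 0.19 and 16.00 ± 0.07 (SD, n = 4 each). Epithelial markers as a list stood at a summed level of 18.35 to 18.82 in wild type and 18.39 to 18.61 in Arg1 ko. Among other cell types, fibroblast markers were higher in 9 of 10 (4 at an unadjusted p under 0.05), with a summed level of at most 15.25 in wild type and 15.30 to 15.41 in Arg1 ko. Red blood cell markers were lower in 6 of 6 (4 at an unadjusted p under 0.05), with a summed level of 12.94 to 14.86 and 12.92 to 13.53. Of all 16380 tested genes, 774 were higher and 716 (4.37%) lower at that unadjusted threshold. Macrophage and monocyte markers stood at 13.94 to 14.41 and 14.05 to 14.17. None of these markers passed the test, none of the fibroblast, red blood cell or macrophage markers was at 0, and the part of these cells in the Reg3b and Reg3g values was not tested.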

How the data were processed

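The members and gene lists were chosen with earlier results of these data known. A stranded mRNA kit was used on 1000 ng of RNA per sample, per the labels' protocols. The submitters' processing notes name BWA 0.7.14-r1136, STAR 2.5.2b, Subread 1.5.3, featureCounts and DESeq2 1.16.1 on GRCm38 without their order or options. The authors deposited regularised log2 values, and no column was left unused. Symbols, coordinates and lengths (longest coding transcript) came from GENCODE vM21, and promoters from RefSeq. The test, on genes with a mean of at least 3, was that of limma 3.58.1 in R 4.3.3 (trended prior, two-sided, Benjamini-Hochberg), checked on simulated data. Replicate numbers follow deposit order and pair nothing. Nothing says that samples came from separate mice, cages or litters, so p-values measure only the spread between these samples. Genes named are the 9 members, Reg2, Reg3d, Lyz2, Arg1, up to 4 per list by smallest p or, for markers, highest mean, and the 3 nearest profiles of members with an SD of at least 0.5. A few genes that this rule names are not reported here. Genes named outside that rule (Il22, Il17a, Il23a, Il6, Stat3, Socs3, Il22ra1, Tyk2, Pla2g5, Spink4, Kit, Retnlb, and untested acinar and defensin genes) were chosen after their values were seen. The alternatives were other filters, scalings, priors and thresholds, an exact test, and leaving out libraries.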

Additional observations from a re-analysis of the deposited data

Results flagged for a closer look

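Pla2g2a in wild type 1, at 4.33, stood apart from the other wild-type libraries, which lay between 3.40 and 3.53. Its gap to the nearest of them was 0.86 of the range of the group, above the critical value of 0.829 for 4 samples. Chance alone flags about 1 in 20 groups, and 20 groups were examined (the 9 genes and the gap between Reg3b and Reg3g, in each genotype). Without wild type 1 the difference of Pla2g2a was 0.55, short of the threshold (limma adjusted p = 0.599).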

How the results depend on the processing

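Under the alternatives, Reg3b, Reg3g, Reg3a, Slpi, Reg1, Lyz1 and Pla2g2a kept their direction. Leaving out 1 library at a time gave 0 to 1005 called genes, the latter without the library labelled wild type 3, and differences of -1.34 to -0.96 for Reg3b, -0.71 to -0.44 for Slpi and -0.27 to 0.80 for Reg4. Reg3b and Slpi passed only without the library labelled wild type 3. The exact test of Reg3b alone gave an unadjusted p of 0.0286 (difference -1.18), as it does wherever the groups do not overlap. Without wild type 1 and 2 Lypd8 turned to 0.14. A filter of a mean of at least 5 left no value for Reg1 and Pla2g2a. No paired analysis was possible because the labels give no shared replicate numbers. Depth is unknown, so no counting error can be given.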
